A study of Drosophila melanogaster with 2 samples.

Results

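The folding in cis of the maternal and the paternal homolog of the autosome arms 2L, 2R, 3L and 3R was compared in 2 haplotype-resolved Hi-C libraries. Both libraries came from whole F1 hybrid embryos aged 2–4 h after egg laying, obtained by crossing DGRP-057 mothers with DGRP-439 fathers, and each was made from many pooled embryos. Every embryo had a maternal DGRP-057 and a paternal DGRP-439 copy of each autosome, so that parent of origin and strain cannot be told apart, and no reciprocal cross was analysed here. Whole embryos hold many cell types, and the maps are averages over them. Members were read pairs with both ends on 1 homolog of 1 of these arms and a separation of at least 3 kb, which makes 8 homolog arms of the 30 sequences named in the files, in both samples. They were 3743730 of 24390496 pairs in replicate 1 and 4295551 of 24659056 pairs in replicate 2 (15.3% and 17.4%).

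Hi-C ligates pieces of DNA that lay close together in the nucleus, and each sequenced pair records 1 such contact. Within a chromosome, contacts become rarer with distance along the DNA, are more frequent within domains than across the boundaries between them, and are more frequent between regions of the same chromatin type (compartments). In Drosophila the homologs also pair in somatic cells, and pairing begins at about this stage of embryogenesis. A read is given to a homolog only where it covers a position at which the strains differ, so regions poor in such differences give few reads.

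The 4 maps (maternal and paternal, 2 replicates each) were of similar depth. The maternal maps held 1901962 and 2200060 pairs, against 1841768 and 2095491 pairs in the paternal maps. Per arm and map the number ranged from 408390 to 575486. The maternal share was 50.8% in replicate 1 and 51.2% in replicate 2. Mapping quality, the aligner's score for how surely a read was placed, reached 30 or more on both reads in only 23.9% and 23.8% of the pairs. In the median 20 kb bin, inward pairs at 300–600 bp, which come mostly from unligated DNA of 1 chromosome, were assigned to different homologs 0.122% as often as to the same homolog in replicate 1 and 0.125% in replicate 2. Homologs were compared within each replicate, as maternal minus paternal, and the 2 differences were tested with limma and Benjamini-Hochberg adjustment (2 replicates). An exact permutation test over 2 replicates cannot go below p = 0.5. The study describes the libraries as biological replicates that were independent.

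The maternal and paternal homologs divided their cis pairs differently over separation. The maternal homolog had a lower share of its pairs at 100 kb to 1 Mb, and a higher share both below 30 kb and above 3 Mb. At 100–300 kb, 11.9% and 10.97% of maternal pairs were found in replicates 1 and 2, against 12.5% and 11.5% of paternal pairs, a ratio of 0.953. This share was lower on the maternal homolog on 4 of 4 arms in both replicates, although the 2 replicates differed from each other by more than the homologs did within each. At 300 kb to 1 Mb the shares were 9.23% and 9.32% for the maternal homolog, against 9.57% and 9.54% for the paternal homolog, also lower on 4 of 4 arms in both replicates. At 3–10 Mb they were 5.998% and 6.57% on the maternal homolog, against 5.84% and 6.23% on the paternal homolog. Above 10 Mb they were 1.09% and 1.12%, against 1.04% and 0.998%, a ratio of 1.08. Both of these long ranges were higher on the maternal homolog on 4 of 4 arms in both replicates. The shortest range, 3–10 kb, held 21.4% and 21.3% of maternal pairs, against 20.8% and 20.9% of paternal pairs, again in 1 direction on all 4 arms. The median separation was 43.8 and 42.8 kb on the maternal homolog, against 46.2 and 44.1 kb on the paternal homolog.

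**Figure D1:**
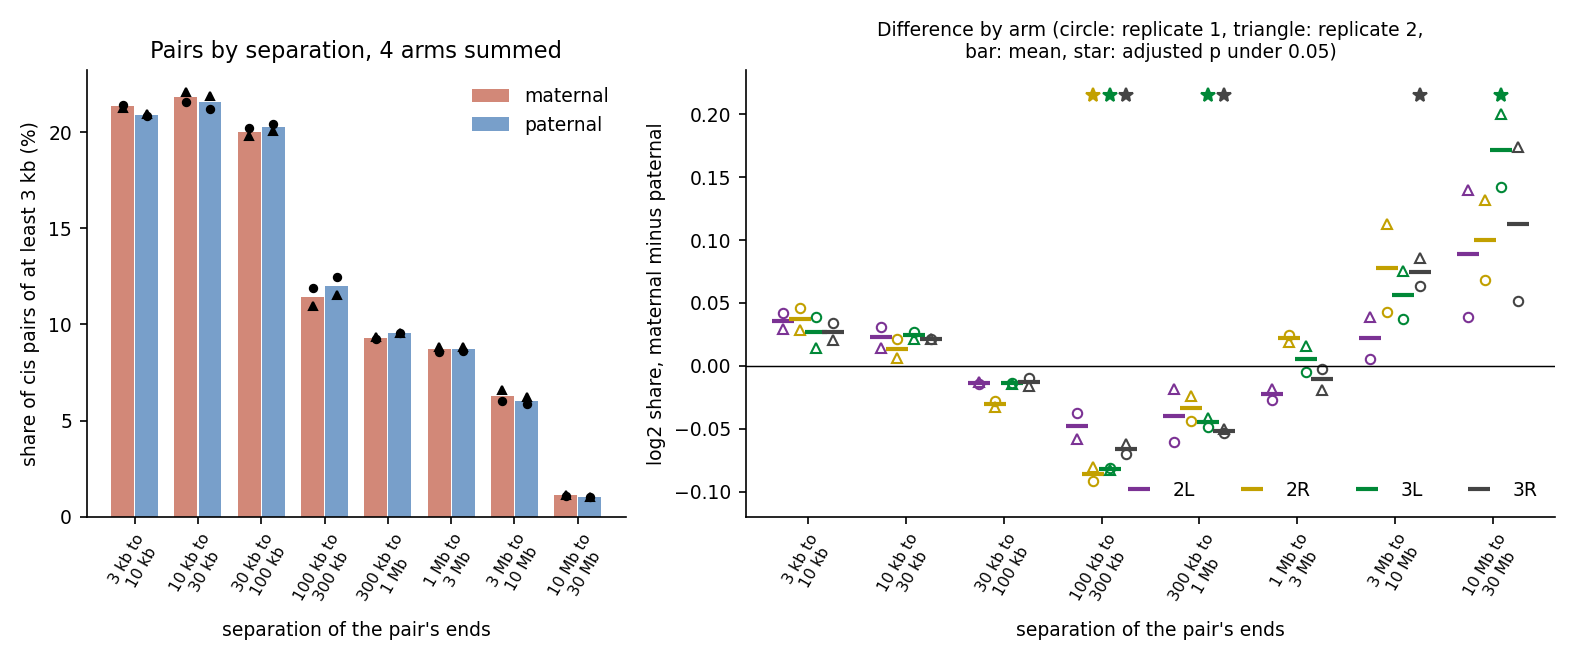
Left, share of cis pairs (%) in 8 ranges of separation, summed over 4 arms, for the maternal and paternal homologs (bars, mean of 2 replicates; circles, replicate 1; triangles, replicate 2). Right, log2 share of the maternal minus that of the paternal homolog for each arm; the values lie below 0 on all 4 arms from 30 kb to 1 Mb and above 0 on all 4 arms below 30 kb and above 3 Mb.

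By limma over 32 combinations of arm and range, 7 passed (21.9% of those tested), 2 with a higher maternal share (6.25%) and 5 with a lower one (15.6%). At 100–300 kb the maternal share fell on 2R (log2 difference −0.092 and −0.080 in replicates 1 and 2), on 3L (−0.082 and −0.083) and on 3R (−0.070 and −0.062), each at an adjusted p of 0.035 by limma. On 2L the same range gave −0.037 and −0.058 and did not pass (limma adjusted p = 0.072). At 300 kb to 1 Mb the maternal share fell on 3L (−0.048 and −0.041) and on 3R (−0.054 and −0.050). The 2 higher shares were above 10 Mb on 3L (0.142 and 0.200) and at 3–10 Mb on 3R (0.064 and 0.086). The 2 replicate differences had the same sign in 96.9% of the 32 combinations. Shares of 1 map sum to a whole, so the ranges are not independent of each other. In a fit that ignored which homologs came from the same library, 0 of 32 passed by limma, with 3 at an unadjusted p under 0.05. With same-strand pairs only, 9 passed, of which 6 were higher and 3 lower on the maternal homolog. With a mapping quality of at least 30, 5 of 32 passed, 2 higher and 3 lower. The 2 replicate differences then had the same sign in 81.25% of the combinations. Their Pearson correlation over the 32 was 0.555, against 0.879 with all pairs (a description).

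Insulation was measured in 20 kb bins as the mean corrected contact between the 5 bins on one side and the 5 bins on the other, divided by the median of the map. A low value marks a boundary between domains and a high value the interior of a domain. The insulation profiles of the homologs were nearly the same. Over 4426 bins the Pearson correlation between maternal and paternal log2 insulation was 0.940 in replicate 1 and 0.951 in replicate 2, against 0.957 between the replicates of the maternal homolog and 0.949 between those of the paternal homolog (a description over bins, which share libraries and overlap in their windows).

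The depth of the profile differed. The SD of log2 insulation over bins was 0.570 and 0.595 in the maternal maps of replicates 1 and 2, against 0.512 and 0.552 in the paternal maps. The maternal SD was the higher one on 4 of 4 arms in both replicates. In 1107 bins with the highest mean insulation value over the 4 maps, the median maternal-minus-paternal difference was 0.096 in replicate 1 and 0.063 in replicate 2. In 1107 bins with the lowest values it was −0.066 and −0.049. The maternal homolog thus had the higher values in the bins with high insulation values and the lower values in those with low ones. Because the bins were ranked by the mean of the same 4 maps, these medians largely restate the difference in SD. With 2 replicates no exact test of this difference can pass, and the maternal maps were also the deeper ones.

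By limma, 131 of 4426 bins (2.96%) differed between the homologs, of which 97 (2.19%) were higher and 34 (0.768%) lower on the maternal homolog. They formed 85 loci, 60 higher and 25 lower, and 58 of these were a single bin. The called differences ranged from 0.158 to 0.840 in size, with a median of 0.32, beside a median of 0.093 over all bins. All 131 had the same sign in both replicates, beside 60.8% of all 4426 bins. A call on the mean of the 2 differences favours bins with the same sign, so this is a description only. By arm, 45 bins were called on 2L (4.11% of its bins), 23 on 2R (2.29%), 30 on 3L (2.85%) and 33 on 3R (2.59%). The bins called as higher on the maternal homolog had a median log2 insulation of 0.55 on the maternal homolog and 0.19 on the paternal homolog. Those called as lower had medians of −0.396 on the maternal homolog and 0.0035 on the paternal homolog. The median maternal share of read ends was 50.3% and 51.1% in the higher bins and 51.1% and 51.5% in the lower bins, beside 50.7% and 51.1% over all bins in replicates 1 and 2. The number of calls rested on the fit. It was 0 of 4426 when limma took no account of the number of pairs behind a bin (554 bins at an unadjusted p under 0.05), 1 of 3450 with a mapping quality of at least 30, and 42, of which 28 were higher and 14 lower on the maternal homolog, when the median difference of each replicate was set to 0.

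**Figure D2:**
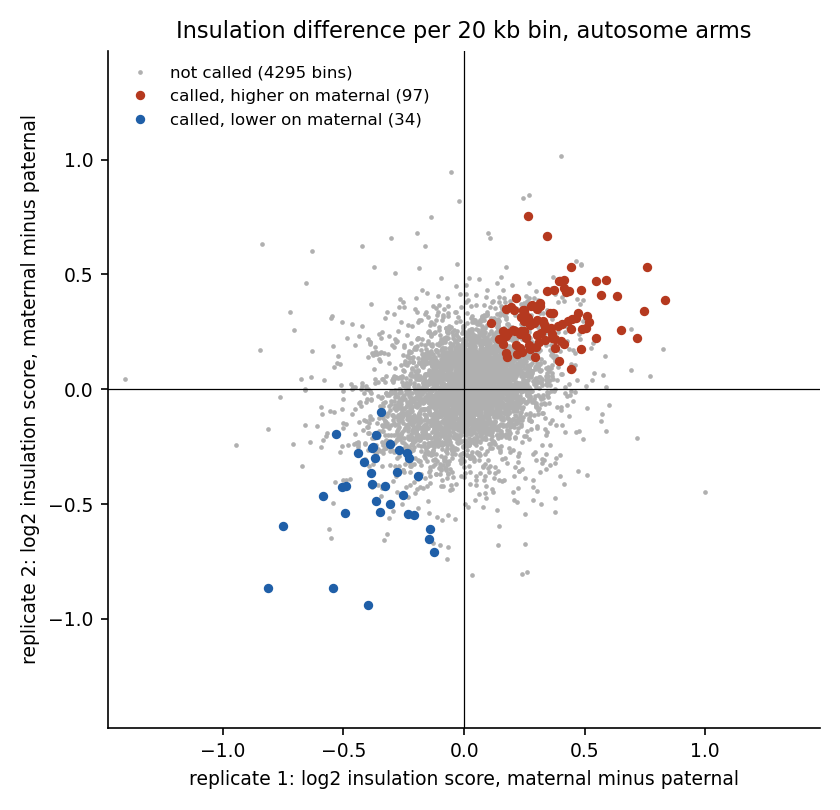
Difference in log2 insulation (maternal minus paternal) of each 20 kb bin in replicate 1 (x axis) and replicate 2 (y axis). Grey points are bins that were not called, red points the 97 called bins with a higher and blue points the 34 called bins with a lower maternal value; over all bins the Pearson correlation of the 2 differences was 0.277.

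The largest difference was a boundary of the maternal homolog at 2L 13360001–13380000 (dm3). Log2 insulation there was −0.952 and −1.098 on the maternal homolog in replicates 1 and 2, against −0.139 and −0.232 on the paternal homolog. The maternal maps held 149 and 151 raw pairs across the bin, against 280 and 289 in the paternal maps. The lowest maternal value within 100 kb lay in this bin in both replicates, and the lowest paternal value within 100 kb was −0.195 in replicate 1 and −0.295 in replicate 2. The difference was −0.84 ± 0.037 (SD, n = 2; limma adjusted p = 5.52e-07), and the locus held 3 called bins, from 13340001 to 13400000. The maternal share of read ends in the bin was 51.9% and 49.6%, and no inward pair at 300–600 bp was assigned to different homologs. With a mapping quality of at least 30 the difference at this bin was −1.19 and −1.09 (limma adjusted p = 0.105), and the only bin of the autosomes called under that filter was its neighbour at 13380001–13400000. Of the 11 other settings that gave a value here, 9 called this bin. The exceptions were the mapping quality filter and the fit without a trend on the number of pairs. Among the 10 named insulation loci this was the highest share, and the others were called less often, down to 3 of 9 settings at 3R 6140001 and 4 of 11 at 3R 15660001.

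At 2R 9120001–9140000 log2 insulation was −1.471 and −1.303 on the maternal homolog, against −0.719 and −0.708 on the paternal homolog, with 98 and 121 raw pairs against 183 and 181. The lowest paternal value within 100 kb lay 20 kb to the left in both replicates, and the lowest maternal value lay 20 kb to the left in replicate 1 and in this bin in replicate 2. At 3R 15660001–15680000 the values were −0.573 and −0.866 on the maternal homolog, against −0.224 and −0.331 on the paternal homolog, and both homologs had their lowest value within 100 kb further to the right. At 2R 1520001–1540000 they were −0.789 and −0.804 on the maternal homolog, against −0.282 and −0.378 on the paternal homolog. At these 3 bins, picked by the size of their differences, the maternal and paternal values did not overlap (limma adjusted p = 0.0017, 0.0323 and 0.0243). At 2R 2160001–2180000 the maternal values, 0.445 and −0.084, were also below the paternal values, 0.842 and 0.855. The 2 maternal values there lay far apart, and 15.1% and 16.02% as many inward short pairs were assigned to different homologs as to the same one. Limma gave an adjusted p of 0.0175 at this bin, and whether this misassignment had a part in the difference was not tested.

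At 3R 17100001–17120000 log2 insulation was −0.339 and −0.55 on the maternal homolog, against −1.085 and −0.89 on the paternal homolog, with 175 and 194 raw pairs against 110 and 156, and a maternal share of read ends of 53.5% and 56.2%. At 3L 13680001–13700000 it was 0.478 and 0.625 on the maternal homolog, against −0.154 and 0.218 on the paternal homolog, with 191 and 236 raw pairs against 134 and 199. With windows of 2 bins the difference at this bin was −0.0081. At 3R 6140001–6160000 the values were 0.051 and 0.014 on the maternal homolog, against −0.705 and −0.52 on the paternal homolog, from 79 and 85 raw pairs against 62 and 57. Both homologs had their lowest value within 100 kb at 40 kb to the right. Only 5.44% and 7.76% of the maternal read ends and 5.07% and 5.18% of the paternal read ends in this bin were of mapping quality 30 or more.

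At 2L 20200001–20220000 log2 insulation was 0.959 and 1.162 on the maternal homolog, against 0.126 and 0.773 on the paternal homolog. In this bin the maternal share of read ends was 61.0% and 58.6%, and inward short pairs were assigned to different homologs 95.1% and 93.9% as often as to the same one. The part of this misassignment in the difference was not tested. At 2R 880001–900000 the maternal values were 1.105 and 1.688, against paternal values of 0.842 and 0.932, and the replicate differences of 0.263 and 0.756 lay far apart. With windows of 2 bins the difference there was −0.072. Of the loci with the most called bins, picked out after their values were seen, 2R 17620001–17820000 held 6 bins and 2L 22460001–22620000 held 5, both with a higher maternal value. In the leading bin of the 2L locus, 22560001–22580000, inward short pairs were assigned to different homologs 22.9% and 24.1% as often as to the same one, and the maternal share of read ends was 55.4% and 57.1%. In that of the 2R locus, 17720001–17740000, these values were 0.104% and 0.217%, and 50.1% and 49.7%.

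**Figure D3:**
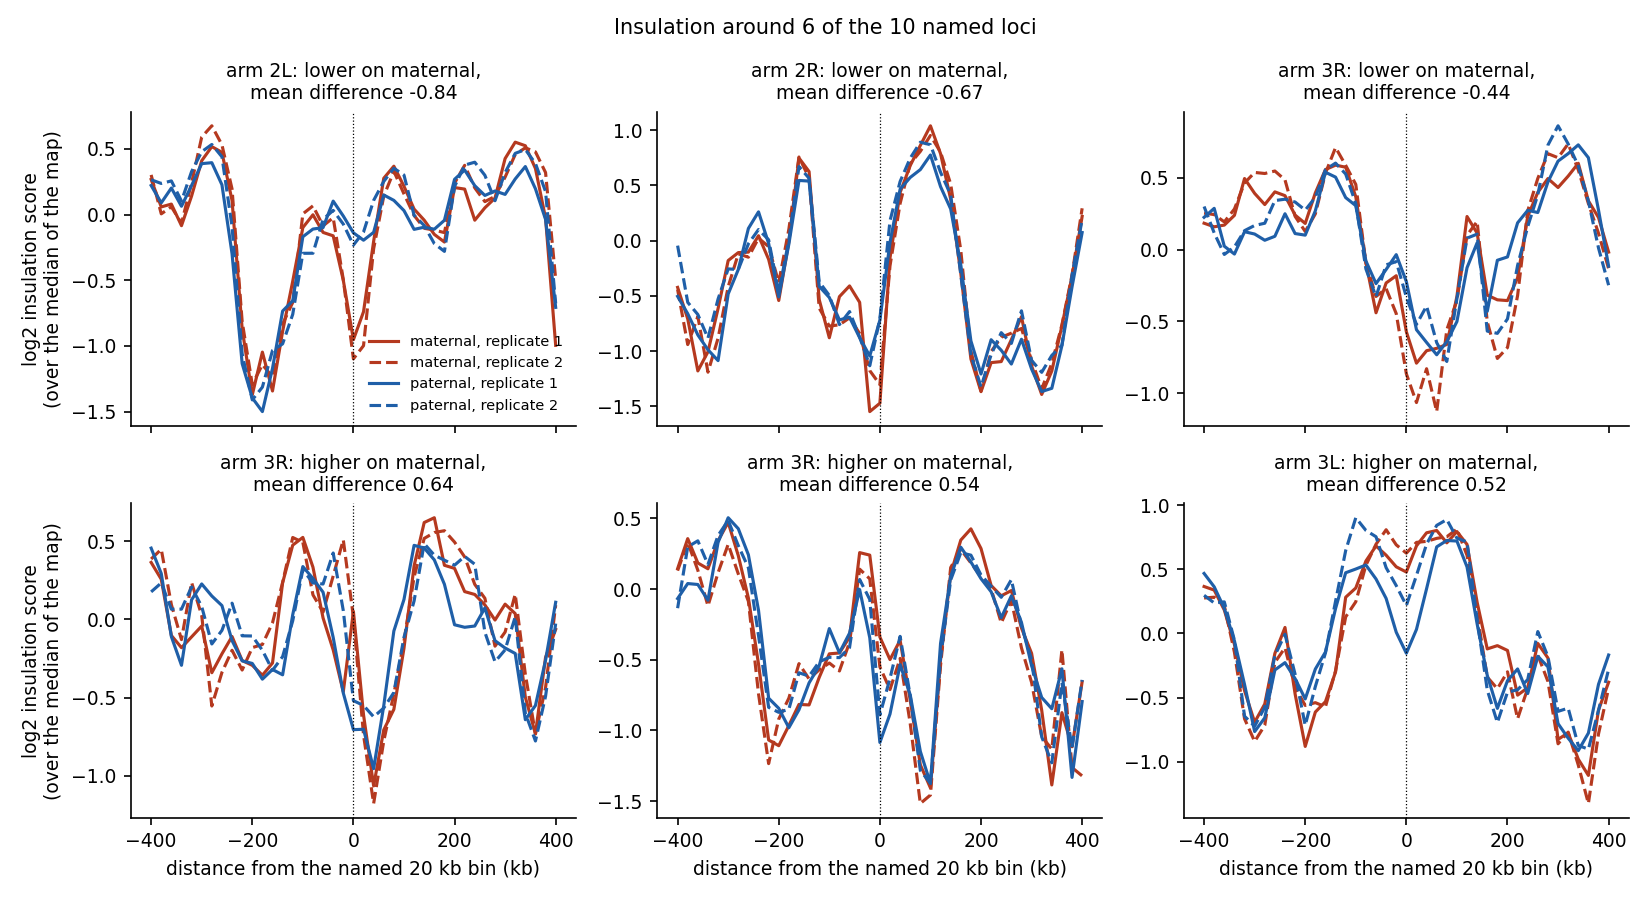
Log2 insulation from 400 kb left to 400 kb right of 6 named bins (dotted line at 0) on the maternal homolog (red) and the paternal homolog (blue), solid for replicate 1 and dashed for replicate 2. The 2L locus shows a maternal minimum of −0.952 and −1.098, where the paternal values are −0.139 and −0.232, and at the 2R locus both homologs are low, at −1.471 and −1.303 on the maternal homolog and −0.719 and −0.708 on the paternal homolog.

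Boundaries were also called separately in each map, as minima of log2 insulation with a prominence of at least 0.3. There were 423 and 455 in the maternal maps, against 407 and 431 in the paternal maps. Of the maternal boundaries of replicates 1 and 2, 75.7% and 76.9% had a paternal boundary within 1 bin in the same replicate, and 80.6% and 74.9% had one on the maternal homolog of the other replicate. Of the paternal boundaries, 78.6% and 81.2% had a maternal one within 1 bin, and 81.1% and 76.6% had one on the paternal homolog of the other replicate. The homologs of 1 library therefore shared about as many boundaries as the replicates of 1 homolog. In both replicates of 1 homolog but within 2 bins on neither map of the other, 16 boundaries were found on the maternal homolog and 9 on the paternal homolog. On the maternal homolog 7 of them lay on 3R, 4 on 2L, 4 on 2R and 1 on 3L. On the paternal homolog 6 lay on 3R, 2 on 3L and 1 on 2R. Of all boundaries in the maternal maps, 115 of 423 and 123 of 455 lay on 3R. In the paternal maps 111 of 407 and 120 of 431 did. The boundaries on 1 homolog are too few to compare arms.

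The maternal boundaries with the largest mean prominence were at 3R 4880001–4900000 (2.05), 3R 14000001–14020000 (1.59) and 2L 13360001–13380000 (1.06). At the 3R 4880001 boundary log2 insulation was −1.42 and −1.22 on the maternal homolog, against −0.88 and −0.72 on the paternal homolog, and limma did not call the bin (adjusted p = 0.103). At the 3R 14000001 boundary it was −0.87 and −0.84 on the maternal homolog, against −0.50 and −0.59 on the paternal homolog (limma adjusted p = 0.0289). The paternal boundaries with the largest mean prominence were at 3R 14080001–14100000 (1.45), 2R 15000001–15020000 (0.94) and 3R 25120001–25140000 (0.87). At the 3R 14080001 boundary the maternal values were −0.58 and −0.74, against paternal values of −0.77 and −0.60, so the homologs overlapped. This paternal boundary and the maternal one at 3R 14000001 lay 80 kb apart. At 2R 15000001 the maternal values were −0.39 and −0.23, against paternal values of −0.68 and −0.63, and at 3R 25120001 they were −0.45 and −0.46, against −0.65 and −0.55. Limma called neither bin (adjusted p = 0.205 and 0.576). With a mapping quality of at least 30, or counting a boundary as absent where the other homolog had none within 1 bin, 20 and 18 paternal boundaries were found in place of 9. The maternal counts under these settings are not given here, so 16 against 9 holds for the main setting only. Of the boundaries on 1 homolog, 3 of 16 maternal and 3 of 9 paternal ones fell in bins that limma called, beside 2.96% of all bins, and since a boundary on 1 homolog needs a low value there, this count is a description only.

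Contact range was measured per bin as log2 of the pairs at 100 kb to 10 Mb over the pairs at 3–100 kb, after setting the median difference of each replicate to 0. In raw pairs, 73 of 910 bins of 100 kb (8.02%) differed between the homologs by limma, 28 with more distant contacts on the maternal homolog (3.08%) and 45 with fewer (4.95%). In 20 kb bins it was 68 of 4514 (1.51%). These differences went with the local number of reads. The difference and the maternal share of read ends had a Pearson correlation of −0.357 in replicate 1 and −0.305 in replicate 2 over the 910 bins (a description). In the 28 bins with a higher maternal range the median maternal share of read ends was 49.9% and 50.5%, and in the 45 bins with a lower one it was 51.7% and 52.2%. Contact range was also taken after iterative correction of each map, which evens out the reads per bin. There, local and distant were split by whole 20 kb bins instead of base pairs. A pair within 1 bin was counted once instead of at both ends. Raw and corrected values thus differ in more than the evening out of reads, and the parts were not separated. After the correction, 5 of 910 bins (0.549%) were called by limma, and 19 of 4514 bins of 20 kb (0.421%). All 5 were among the 73. In raw pairs the count was 1 of 910 when local pairs were taken from 10 kb on, and also 1 when distant pairs began at 200 kb. The correlation of the 100 kb differences between replicates was 0.400 in raw pairs and 0.073 after the correction, and with the maternal share of read ends it was then −0.053 and 0.006.

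**Figure D4:**
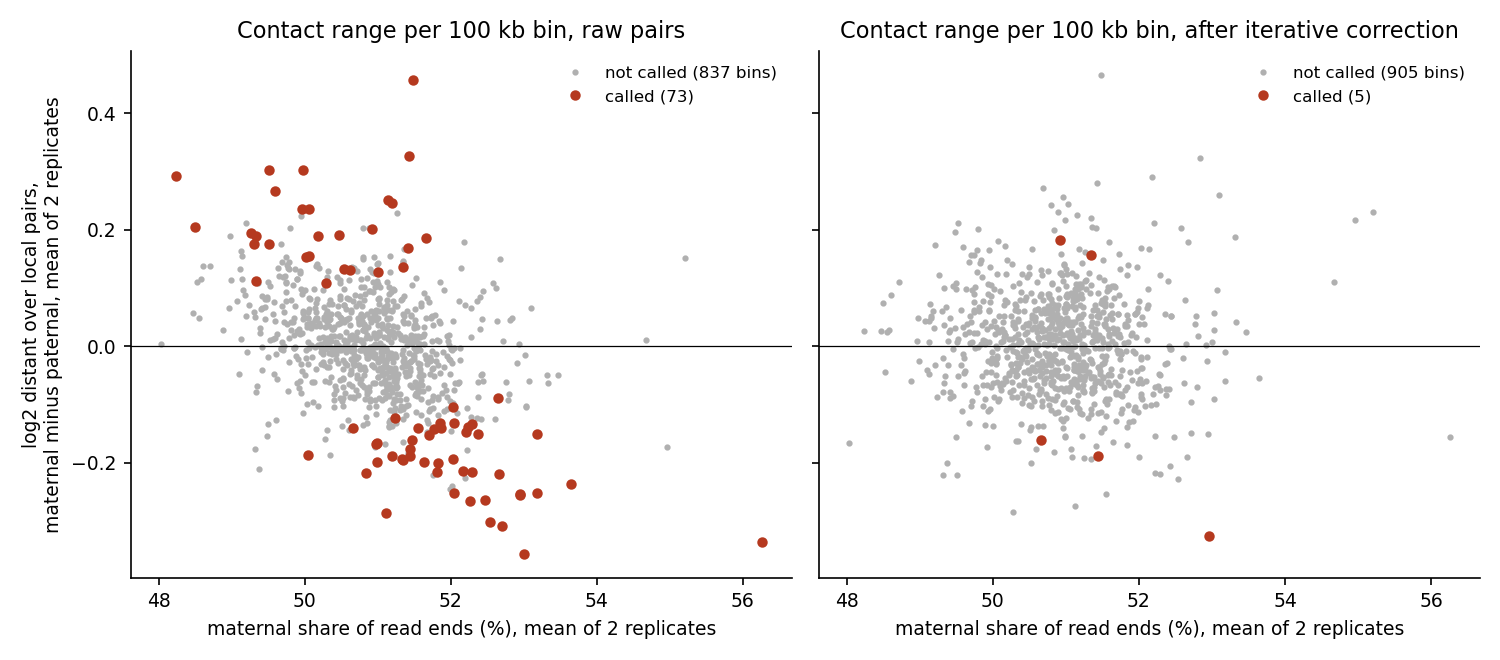
Difference in contact range (log2 distant over local pairs, maternal minus paternal, mean of 2 replicates) of each 100 kb bin against the maternal share of read ends (%). Left, raw pairs, with 73 called bins (red) and a correlation with the share of read ends of −0.357 and −0.305 in replicates 1 and 2. Right, the same bins after iterative correction, with local and distant split by whole 20 kb bins, where 5 are called.

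The strongest of the 5 was 3R 24000001–24100000. After the correction its log2 ratio of distant over local contacts was 0.253 and 0.150 on the maternal homolog, against 0.707 and 0.424 on the paternal homolog (limma adjusted p = 0.000271). Its raw numbers were 1712 and 2002 distant pairs with 1600 and 2030 local pairs on the maternal homolog, against 1929 and 2052 distant with 1396 and 1798 local pairs on the paternal homolog. The maternal share of read ends in this bin was 52.1% and 53.8%. At 3R 23200001–23300000 the corrected ratios were 0.069 and 0.041 on the maternal homolog, against 0.289 and 0.219 on the paternal homolog. At 3L 7400001–7500000 they were −0.384 and −0.452 on the maternal homolog, against −0.147 and −0.237 on the paternal homolog. The maternal homolog had the longer range in 2 bins. At 2L 12100001–12200000 the corrected ratios were 0.213 and 0.206 on the maternal homolog, against 0.099 and 0.083 on the paternal homolog. At 3R 15400001–15500000 they were 0.1701 and 0.119 on the maternal homolog, against 0.057 and −0.056 on the paternal homolog. In all 5 bins the maternal values lay on one side of both paternal values. Bins called for their differences tend to show this, so it is a description only. The bins just named, other than 3R 24000001, had a maternal share of read ends from 50.4% to 51.7%.

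Of the 10 loci with the largest differences in raw pairs, 5 in each direction, none passed after the correction. Over all settings run, they were called in 22.2% to 77.8% of those that gave a value. At 2L 13100001–13200000, part of a run of 4 called bins from 13000001 to 13400000, the distant over local ratio was 0.721 and 0.694 on the maternal homolog, against 0.922 and 0.934 on the paternal homolog, and the log2 difference was −0.357 in raw pairs and 0.0079 after the correction. This bin had a maternal share of read ends of 53.2% and 52.8%. The maternal boundary at 2L 13360001 lies in the last bin of this run. At 2L 2600001–2700000 the ratio was 0.826 and 0.679 on the maternal homolog, against 0.639 and 0.606 on the paternal homolog, a log2 difference of 0.303 in raw pairs and 0.211 after the correction (limma adjusted p = 0.136). At 3L 17000001–17100000 it was 1.02 and 1.02 on the maternal homolog, against 1.33 and 1.22 on the paternal homolog, a log2 difference of −0.287 in raw pairs and −0.275 after the correction (limma adjusted p = 0.109). At 2R 300001–400000 the log2 difference was 0.458 in raw pairs and 0.466 after the correction (limma adjusted p = 0.387), with 130 and 170 local pairs on the maternal homolog and 153 and 177 on the paternal homolog. The others named by the same rule were 2R 2100001, 2R 11200001 and 2L 22700001, with log2 differences in raw pairs from 0.292 to 0.326, and 2L 22800001, 3R 4900001 and 3R 9400001, from −0.337 to −0.266. After the correction the first 3 were 0.281, 0.106 and 0.026, and the other 3 were −0.156, −0.149 and −0.068. The replicates lay far apart at 2R 2100001 (0.077 and 0.575 in raw pairs), at 2L 22800001 (−0.649 and −0.026) and at 3R 4900001 (−0.483 and −0.136). The direction turned at 2L 22700001 when distant pairs began at 200 kb (−0.146) and at 3R 4900001 with a mapping quality of at least 30 (0.251).

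Over long distances, 37350 pairs of 100 kb bins at least 1 Mb apart were tested, with medians of 5 and 6 pairs per maternal map and 5 and 6 per paternal map. None passed by limma (0%), with 1745 at an unadjusted p under 0.05. Among the 20195 with at least 20 pairs over the 4 maps, 11 passed (0.0545%). Of these 11, only 2 had 20 pairs on each homolog, and the other 9 reached 20 mainly through the homolog where they were higher, so their p-values are not given. In simulated data the test over all pairs of bins called no planted difference. A lack of calls therefore says nothing about absence.

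Of the distant contacts named by their p-values, the one with the most pairs lay on 2L, between 6300001–6400000 and 9400001–9500000, 3.1 Mb apart. It held 20 and 39 pairs on the maternal homolog, against 81 and 77 pairs on the paternal homolog. At this separation the mean pair of bins held 5.75 and 7.21 pairs on the maternal homolog and 5.98 and 7.09 on the paternal homolog, so that the contact was 3.48 and 5.41 times the mean on the maternal homolog and 13.5 and 10.9 times on the paternal homolog. Both homologs thus lay above the mean here, and the paternal homolog held more pairs (log2 differences −2.01 and −1.03 in replicates 1 and 2, mean −1.52). It did not pass over all pairs of bins (limma adjusted p = 0.393). Nor did it pass after iterative correction (limma adjusted p = 0.953) or with a mapping quality of at least 20 (0.946) or 30 (0.914). Among those with at least 20 pairs, limma gave an adjusted p of 1.51e-09. The contact was named for its small p, so the size of its difference is a description only. Among pairs of mapping quality 30 or more it held 3 and 13 on the maternal homolog, against 22 and 33 on the paternal homolog. Its pairs were spread over a wide stretch at both ends, and 80% of the paternal ends fell within 51051 bp on the left and 52885 bp on the right. In a window from 9440001 to 9480000, chosen after these values were seen, the 20 kb bin at 6340001 held the most paternal contacts in both replicates, with 5 and 4 pairs on the maternal homolog against 24 and 18 on the paternal homolog. This bin was picked as the paternal peak. Over the whole stretch from 6240001 to 6460000 the window had 18 and 34 pairs on the maternal homolog against 61 and 60 on the paternal homolog, and in replicate 2 the bins on both sides of the peak held 8 maternal pairs each. Contacts of the same window at 3–100 kb were not fewer on the maternal homolog, with 1066 and 1125 pairs against 933 and 1026.

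On 3L, the contact between 14100001–14200000 and 20800001–20900000 had 0 and 1 pairs on the maternal homolog, against 13 and 19 on the paternal homolog. The neighbouring pair of bins, from 14200001, had 2 and 1 against 11 and 12. Its 2 ends differed in shape. On the right, 80% of the paternal ends fell within 126 bp, from 20816259 to 20816384, and on the left within 34045 bp. In a window from 20816001 to 20817000, chosen after these values were seen, 22 and 27 paternal pairs reached 14100001–14320000, and 0 and 0 maternal pairs did. The 20 kb bin from 14180001 held 8 and 11 of them. At all separations counted, the window held 1 and 1 pairs on the maternal homolog, against 33 and 44 on the paternal homolog. So few maternal pairs cannot show whether the maternal homolog made this contact. None of the 4 maps held a pair between this window and its own surroundings at 3 kb to 1 Mb. Positions are those of dm3, and whether this sequence lies at the same place in the genomes of the strains was not tested. The 6.7 Mb between the starts of the 100 kb bins therefore holds for dm3 only. Of the 22 and 27 pairs, 15 and 24 were of mapping quality 20 or more and 0 and 0 of 30 or more. Limma gave an adjusted p of 0.198 for the pair of 100 kb bins over all 37350.

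**Figure D5:**
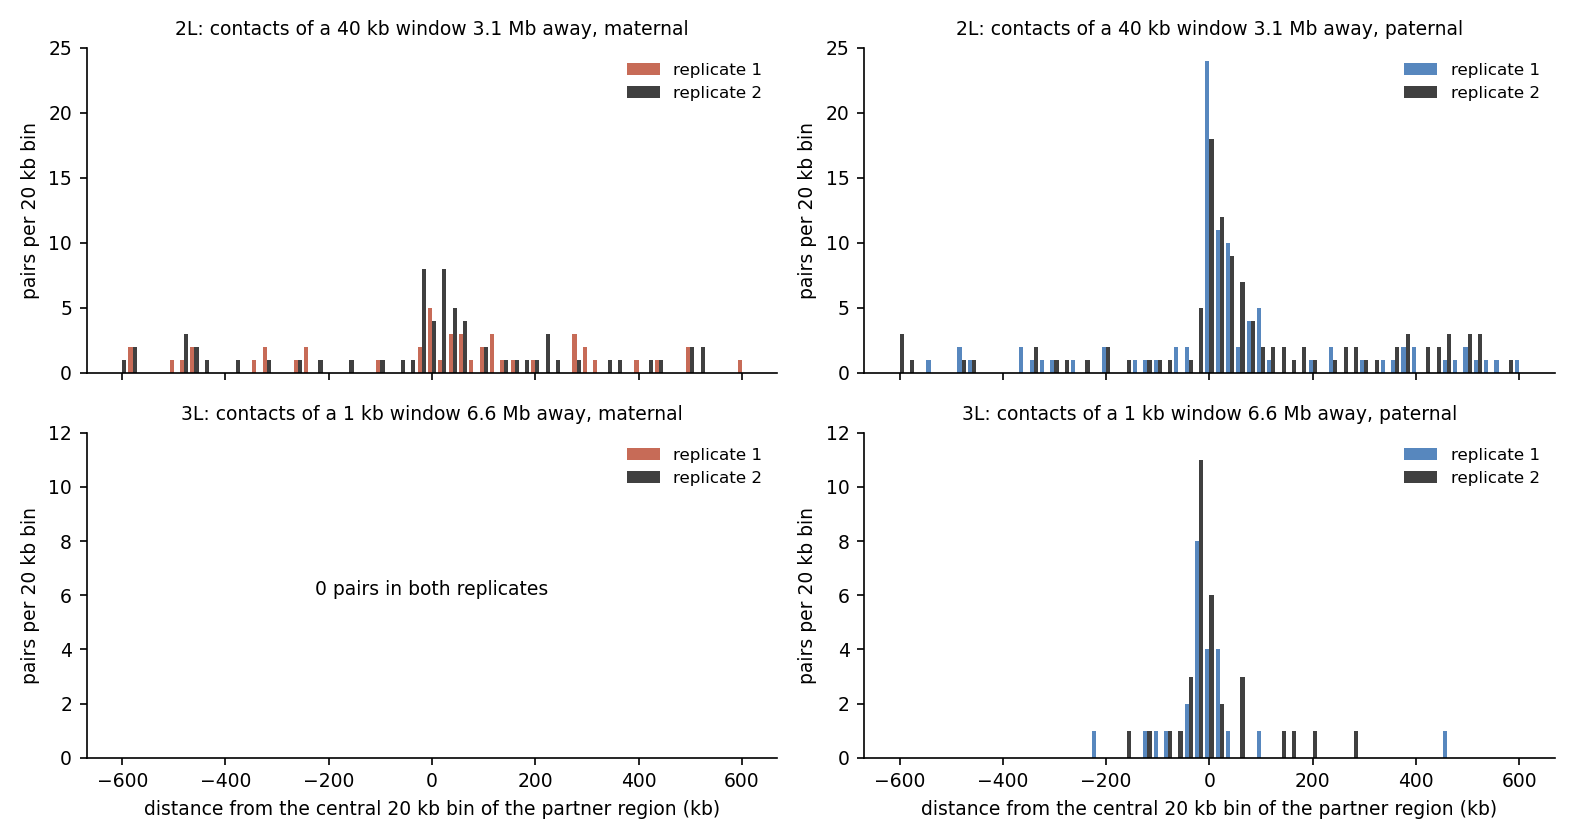
Pairs per 20 kb bin (y axis) between a window and a region on the same arm, against the distance from the central bin of that region (kb), for the maternal homolog (left) and the paternal homolog (right) in replicate 1 (coloured) and replicate 2 (black). Top, the 2L window, with a peak of 24 and 18 paternal pairs and 5 and 4 maternal pairs in the same bin. Bottom, the 3L window, with no maternal pair in the range shown. At all separations it held 1 and 1 maternal pairs, against 33 and 44 paternal pairs.

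On 2R, the contact of 2000001–2100000 with 8200001–8300000 had 12 and 16 pairs on the maternal homolog against 0 and 1 on the paternal homolog, with 80% of the maternal ends within 149 bp on the left and 911 bp on the right. Of these 28 maternal pairs, 2 were of mapping quality 20 or more, and 11 of 12 and 14 of 16 were on the same strand. Limma gave an adjusted p of 0.392 over all pairs of bins. Here too the place of these sequences in the genomes of the strains was not tested. Also on 2R, the contact of 1100001–1200000 with 2200001–2300000 had 2 and 5 pairs on the maternal homolog against 19 and 25 on the paternal homolog. Of these paternal pairs, 6 and 5 were of mapping quality 20 or more. After iterative correction, for which bins of low coverage were left out, this contact had no value. On 3L, the contact of 11800001–11900000 with 12800001–12900000 had 47 and 53 pairs on the maternal homolog against 19 and 27 on the paternal homolog, with 80% of the maternal ends within 71424 bp on the left and 63853 bp on the right. It was 2.502 and 2.39 times the mean at that separation on the maternal homolog, and 0.983 and 1.24 times on the paternal homolog. On 3R, the contact of 20600001–20700000 with 22400001–22500000 had 14 and 16 pairs on the maternal homolog against 2 and 4 on the paternal homolog, with 80% of the maternal ends within 64303 bp on the left and 57775 bp on the right. The 3L and 3R contacts with a higher maternal count, each with a limma adjusted p of 0.933, did not pass over all 37350. The remaining ones, on 3R (3400001 with 8100001), 2L (7100001 with 10800001) and 2R (15100001 with 19300001), had at most 11 pairs in any map.

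Compartments were described by the first eigenvector of the observed over expected map of each arm in 100 kb bins. The Pearson correlation of this vector between the maternal and paternal homologs of 1 replicate ranged from 0.449 to 0.773 over the 4 arms and 2 replicates, with a median of 0.693. Between the replicates of 1 homolog it ranged from 0.581 to 0.805, with a median of 0.711. The lowest value between homologs was 0.449 on 3L in replicate 1, where replicate 2 gave 0.649. The range between homologs overlapped that between replicates, so that a difference between homologs in this vector was not detectable at this depth. Whether the vector followed compartments on each arm was not tested. With a mapping quality of at least 30 the mean correlations were 0.103 between homologs and 0.053 between replicates, against 0.669 and 0.702 with all pairs. The medians under that filter were 0.021 between homologs and 0.016 between replicates. In 200 kb bins the medians were 0.810 between homologs and 0.853 between replicates, with lowest values of −0.098 and −0.212.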

How the data were processed

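The authors mapped the Hi-C reads with BWA 0.7.15 to a diploid genome built from dm3 and the strains' single-nucleotide differences, kept pairs placed uniquely on 1 homolog at each end, removed PCR duplicates and deposited lists of read pairs with the position of each end (unit: base pairs) and its mapping quality, a score from 1 to 60 per the file headers and values. The lists hold no counts or normalized values, and the pairs were counted here. Cis pairs of at least 3 kb on 2L, 2R, 3L and 3R were binned at 20 and 100 kb (coordinates are dm3, counted from 1). For insulation and contact range, bins whose log coverage lay more than 7 median absolute deviations below the median in any map were left out. For insulation, those with under 20 raw crossing pairs in any map were left out too. Separation ranges and, in the main setting, distant contacts left out no bins for low coverage. Insulation used iterative correction per arm and map with windows of 5 bins, and contact range used a pseudocount of 0.5, distant contacts a pseudocount of 1 and at least 10 pairs over the 4 maps. A read that covers few strain differences can be given to the wrong homolog, and a region where the strains do not differ gives no reads, which changes local coverage.

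Differences (maternal minus paternal within a library, which pairs the homologs by construction) were tested with limma 3.58.1 in R 4.3.3, two-sided, with a trend on the log2 mean number of pairs except for separation ranges, and called at an adjusted p under 0.05. Called bins of 1 sign within 5 bins (insulation) or adjacent (contact range) formed 1 locus, named by its bin with the smallest p, and the 5 loci per direction with the largest mean difference are named, as are the 5 distant contacts per direction with the smallest p and the 3 boundaries per homolog with the largest prominence. The tests were checked on simulated data with planted differences, of which the distant-contact test called none, so a lack of calls there says nothing about absence. The comparisons, loci and alternatives were chosen with earlier results of these data known. Chromosome X was left out, and no annotation or genome of build dm3 was used, so that loci carry no gene names.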

Additional observations from a re-analysis of the deposited data

How the results depend on the processing

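Insulation calls numbered 131 of 4426. They were 64 with no replicate block (homologs not paired within their library), 0 without the trend, 52 with windows of 2 bins (26 higher, 26 lower), 1 with a mapping quality of at least 30, 24 with same-strand pairs, 0 of 20557 in 4 kb bins (1619 at an unadjusted p under 0.05, limma), 42 with median differences set to 0, and 59 of 1427 in bins with an even maternal share of read ends. They were 174 with windows of 10 bins, 185 with no iterative correction and 130 with separations of at least 10 kb. With at least 50 crossing pairs they were 169, and with no minimum 159. The higher maternal SD of insulation kept its direction in both replicates under all 10 other settings that were run for it. Contact range calls in 20 kb bins numbered 68 of 4514 (1.51%). They were 43 with no replicate block, 0 without the trend (506 at an unadjusted p under 0.05, limma), and 193 and 45 with a limit of 50 kb or local pairs from 10 kb. They were 0 with a mapping quality of at least 30 (347 unadjusted, limma), 10 with same-strand pairs and 19 after iterative correction. Among the 1448 bins with an even share, 13 (0.898%) were called. In 100 kb bins, the 73 calls of 910 (8.02%) became 25 with no replicate block, 1 with a limit of 200 kb and 1 with local pairs from 10 kb. They became 57 without the trend, 72 with a limit of 50 kb and 77 with distant pairs up to 1 Mb. They became 15 (2 higher, 13 lower) with a mapping quality of at least 30, 14 (3 higher, 11 lower) with same-strand pairs and 5 after iterative correction. Among the 612 bins with an even share, 23 (3.76%) were called. Separation ranges gave 0 calls with no replicate block, 5 of 64 with 16 ranges and 5 of 32 with a mapping quality of at least 30. Distant contacts gave 4 with no replicate block and 11 with at least 20 pairs. Paternal boundaries on 1 homolog numbered 18 with a limit of 1 bin and 20 with a mapping quality of at least 30, against 9. The mean compartment correlations were 0.103 between homologs and 0.053 between replicates with a mapping quality of at least 30, against 0.669 and 0.702.

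Differences that reversed were, with windows of 2 bins, insulation at 3L 13680001 (−0.0081) and 2R 880001 (−0.072); contact range at 2L 22700001 with a limit of 200 kb (−0.146), at 2L 13100001 after iterative correction (0.0079) and at 3R 4900001 with a mapping quality of at least 30 (0.251); and the shares at 1–3 Mb on 2R with a mapping quality of at least 30 (−0.0041) and on 3L, where leaving out 1 replicate gave −0.0048 to 0.0155. The cause was not tested. Without replicate 1 or 2, the median absolute difference was 0.110–0.119 for insulation, 0.125–0.126 for contact range in 20 kb bins and 0.066–0.069 in 100 kb bins. The iterative correction and even-share settings of contact range, the even-share and median settings of insulation, the mapping quality of at least 20 and iterative correction of distant contacts, and the fits of contact range without trend were chosen after seeing the data. Depth limits bins with few strain differences and all single distant contacts.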
